A study of Homo sapiens with 12 samples.

Results

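The 10 genes described here, SCRN1, MKX, ARID5B, DAB1, LRRTM1, SI, IFT57, ATP11A, PLD1 and ADGRG6, were selected on their deposited values: they were chosen by a large difference between LNCaPabl-Enza and LNCaPabl-Abi cells on the arrays of DMSO-treated cells. They are 10 of 17687 genes with a symbol on the array, each measured by 1 row, and no filter on low values was applied. LNCaPabl-Enza and LNCaPabl-Abi are epithelial prostate cancer lines named after LNCaP, an established human line. The labels do not spell out Abi or Enza, and whether a line is a clone or was kept with a drug is not given in the sources used here. Total RNA was hybridised to 12 one-colour Affymetrix arrays, 3 in each of 4 groups: LNCaPabl-Enza with 100 nM dexamethasone (Enza_Dex), LNCaPabl-Enza with the solvent DMSO (Enza_Ctrl), LNCaPabl-Abi with 100 nM dexamethasone (Abi_Dex) and LNCaPabl-Abi with DMSO (Abi_Ctrl), all harvested after 24 h. Dexamethasone is a synthetic agonist of the glucocorticoid receptor. The growth conditions given for LNCaP, RPMI medium with fetal calf serum, are shared by all groups. Levels are log2 values as deposited, and fold changes are on that scale.

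The genes do not form a pathway. MKX (Mohawk) is a homeobox transcription factor of tendon development, and ARID5B is a DNA-binding protein that recruits the histone demethylase PHF2. DAB1 is the adaptor that passes the reelin signal from its receptors to tyrosine kinases in migrating neurons, and LRRTM1 is a postsynaptic adhesion protein that binds neurexins. SCRN1 (secernin-1) is a cytosolic protein known for regulating exocytosis in mast cells. SI (sucrase-isomaltase) is a disaccharidase of the intestinal brush border. IFT57 is a subunit of the intraflagellar transport B complex that builds cilia. ATP11A is a flippase that moves phosphatidylserine to the inner leaflet of the plasma membrane, PLD1 splits phosphatidylcholine into phosphatidic acid and choline, and ADGRG6 (GPR126) is an adhesion G protein-coupled receptor needed for myelination by Schwann cells.

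Because the treatment acts through the glucocorticoid receptor, the promoters of the 10 genes were searched for AGAACA, the core that this receptor and the androgen receptor recognise, on both strands (TGTTCT on the other strand). RefSeq promoter windows (GRCh38.p14, 250 bases before to 50 after a start) were found for all 10 genes, 16 windows in all, with 6 for DAB1 and 2 for ARID5B. The letters occurred in 4 of the 16 windows (25%), against 14.8% of 35116 windows of the same length. These were the windows of SI, MKX and PLD1 and 1 of the 6 DAB1 windows. The windows of the 3 genes with a single start are shown with the matched letters in capitals, SI at chr3:165078447-165078746, MKX at chr10:27745770-27746069 and PLD1 at chr3:171810434-171810733, all on the minus strand and written 5′ to 3′.
SI: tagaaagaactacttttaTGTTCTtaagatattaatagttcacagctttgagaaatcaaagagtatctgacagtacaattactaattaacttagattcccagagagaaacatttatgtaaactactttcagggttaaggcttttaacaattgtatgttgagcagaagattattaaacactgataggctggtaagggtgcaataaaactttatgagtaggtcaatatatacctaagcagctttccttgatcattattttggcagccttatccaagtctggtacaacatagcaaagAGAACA
MKX: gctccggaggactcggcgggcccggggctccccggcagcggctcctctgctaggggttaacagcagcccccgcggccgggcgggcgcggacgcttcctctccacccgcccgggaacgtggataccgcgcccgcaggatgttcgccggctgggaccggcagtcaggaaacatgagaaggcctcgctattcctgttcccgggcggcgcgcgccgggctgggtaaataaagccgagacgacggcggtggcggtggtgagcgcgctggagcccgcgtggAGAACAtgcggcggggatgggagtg
PLD1: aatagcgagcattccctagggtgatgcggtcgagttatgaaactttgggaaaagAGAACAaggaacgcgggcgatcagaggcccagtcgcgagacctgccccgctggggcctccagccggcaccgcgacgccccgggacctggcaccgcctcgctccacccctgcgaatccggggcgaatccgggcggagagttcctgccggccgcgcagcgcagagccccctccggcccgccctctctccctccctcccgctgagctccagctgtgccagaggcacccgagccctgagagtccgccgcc
SI held the letters at positions 19 to 24 and 295 to 300 of its window, MKX at 276 to 281 and PLD1 at 55 to 60. The SI window held 0 CpG dinucleotides and 32.7% G or C, while the MKX window held 40 CpG and 72.3% and the PLD1 window 31 CpG and 69.7%, with medians of 14 CpG and 58.7% over all windows. A match describes letters only.

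Across all genes, the array of Enza_Ctrl replicate 2 had a median Pearson r of 0.855 with the others, against 0.986 to 0.990 for each of the remaining 11. Main differences that use it are therefore given with and without it, while the shares of genes that did not overlap use all arrays. The 7 measured luminal prostate markers averaged 12.52 to 13.21 on the other Enza arrays (11.81 on Enza_Ctrl replicate 2) and 12.26 to 12.82 on the Abi arrays. The basal, neuroendocrine, fibroblast, immune and endothelial lists averaged 3.22 to 5.41 on the Enza arrays other than Enza_Ctrl replicate 2, where they averaged 4.66 to 6.38, and 3.04 to 5.44 on the Abi arrays. Single markers varied within these lists. Over all arrays, the luminal markers averaged from 6.63 for KRT19 to 15.7 for FOLH1. The highest fibroblast, immune and neuroendocrine markers were COL1A2 at 7.77, CD68 at 7.21 and ENO2 at 6.13. None of the 25 measured markers passed the test between Enza_Dex and Abi_Dex. The lowest 25% of genes lay under 4.94 on Enza_Ctrl replicate 2 and under 3.98 to 4.06 on the other arrays. The 23 background probe rows of the array, 1 per GC content class, averaged 4.51 to 4.6 on the 6 treated arrays, with single rows from 2.46 to 7.82. A gene at or under the mean of these rows on an array is called not above background there, a coarse limit since the GC content of each gene's probes was not used. Where all arrays of a group are so, the fold is given as at least the bright group's mean over the higher, per array, of that background mean and the gene's own value. In bulk RNA, fewer cells with a transcript and less of it per cell cannot be told apart. No label says that replicates are separate cultures. The spread behind each p-value is that between arrays of a group and may therefore be technical.

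With DMSO, the comparison that chose them, 5 of the genes were lower in LNCaPabl-Enza and 5 higher, and these values are a description. The mean log2 difference (Enza_Ctrl minus Abi_Ctrl) was -3.88 for SCRN1, -3.78 for DAB1, -3.30 for MKX, -3.16 for ARID5B and -1.91 for LRRTM1. It was 4.02 for SI, 2.58 for ATP11A, 2.19 for IFT57, 1.93 for PLD1 and 1.85 for ADGRG6. SI and SCRN1 ranked 10 and 11 by size among all genes, and ADGRG6, the smallest, ranked 236. The choice had no fixed threshold: 226 other genes differed by 1.85 or more. Without Enza_Ctrl replicate 2 the difference of IFT57 was 3.05 and that of SI 4.64, ARID5B was at -2.47 and SCRN1 at -3.46, and the other 6 moved by less than 0.4. Of all genes, 0.266% were called between these groups by limma with 12 arrays (adjusted p under 0.05), and 1.29% without Enza_Ctrl replicate 2.

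**Figure D1:**
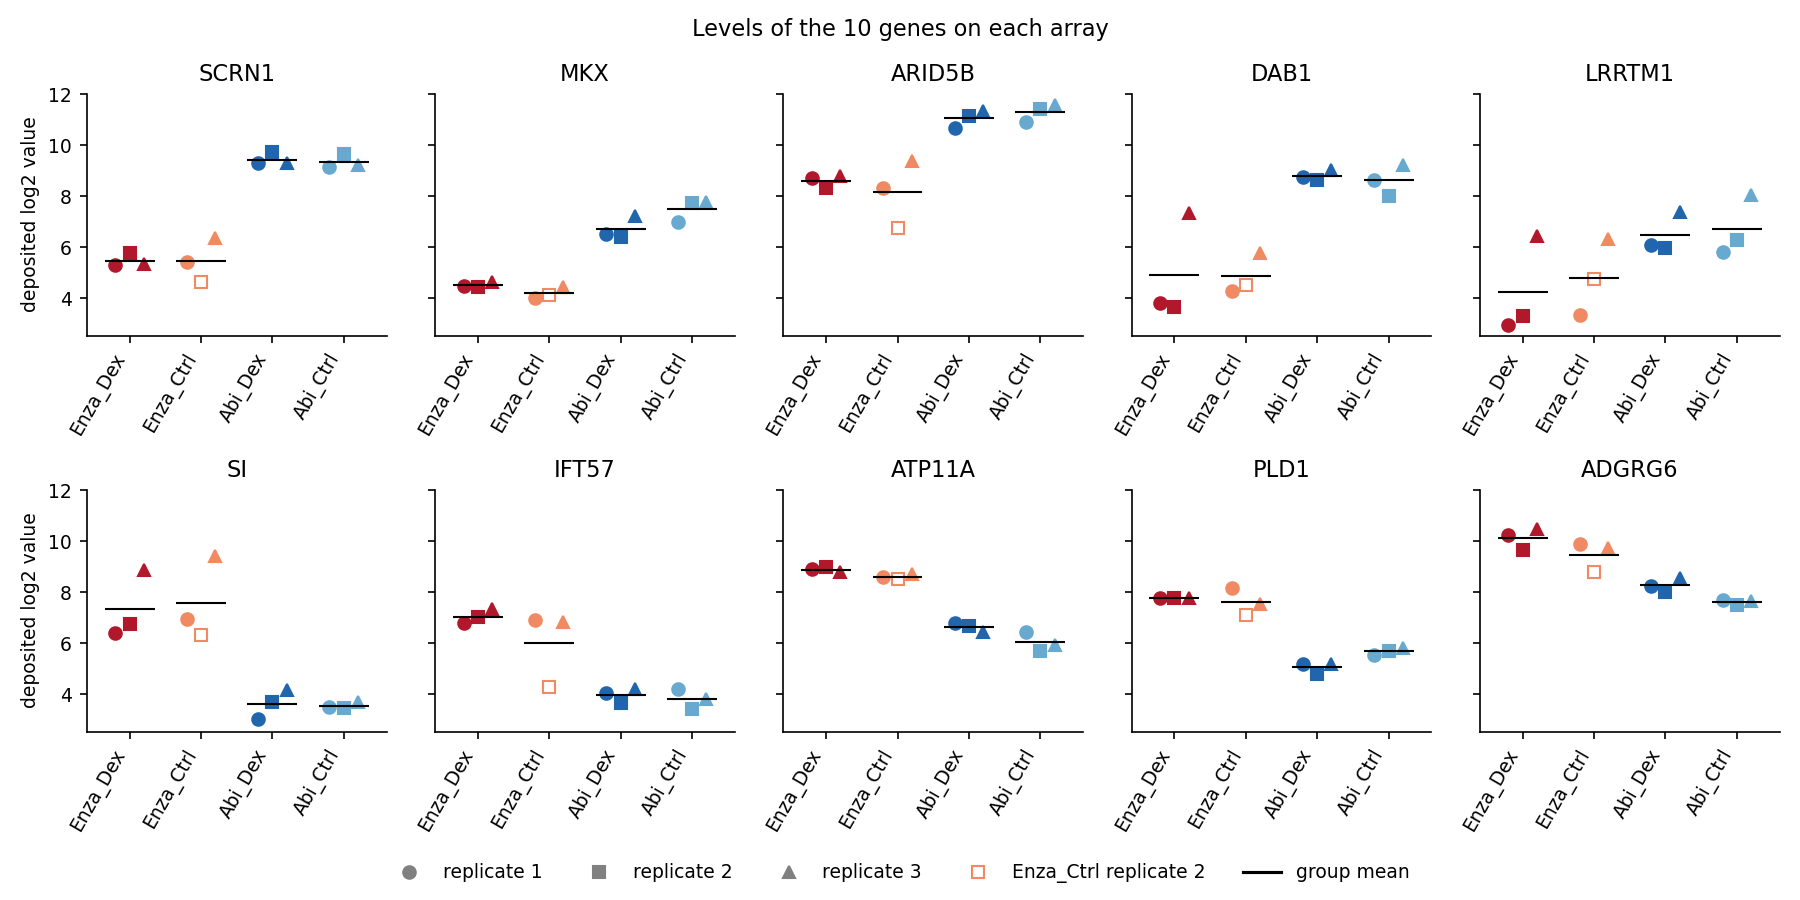
Deposited log2 values (vertical axis) of the 10 genes on each of the 12 arrays, by group, with symbols for the replicate number, an open square for Enza_Ctrl replicate 2 and a line at each group mean. SCRN1, MKX, ARID5B, DAB1 and LRRTM1 lie lower in LNCaPabl-Enza and the other 5 higher, and replicate 3 of LNCaPabl-Enza lies above the other replicates for DAB1, LRRTM1 and SI.

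Whether the difference holds with dexamethasone was tested on the 6 treated arrays alone, while the genes were chosen for their difference on the DMSO arrays. Earlier results of these data were known at that choice, so the treated arrays may not be fully independent of it. All 10 genes differed in the same direction as with DMSO, and 9 passed limma's test with Benjamini-Hochberg adjustment over all genes (adjusted p under 0.05): SCRN1, MKX, ARID5B and DAB1 were lower in Enza_Dex than in Abi_Dex, and SI, IFT57, ATP11A, PLD1 and ADGRG6 were higher. Of all genes, 2.84% were called in this comparison, 0.950% higher and 1.89% lower in Enza_Dex. The median size of the difference was 2.58 for the 10 genes and 0.17 for all genes. LRRTM1 did not pass. When all 12 arrays shared the estimate of spread, 5 of the 10 passed (SCRN1, MKX, ATP11A, PLD1 and ADGRG6, with 0.277% of all genes called), and 9 passed when the spread came from the 11 arrays other than Enza_Ctrl replicate 2, beside 2.28% of all genes.

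**Figure D2:**
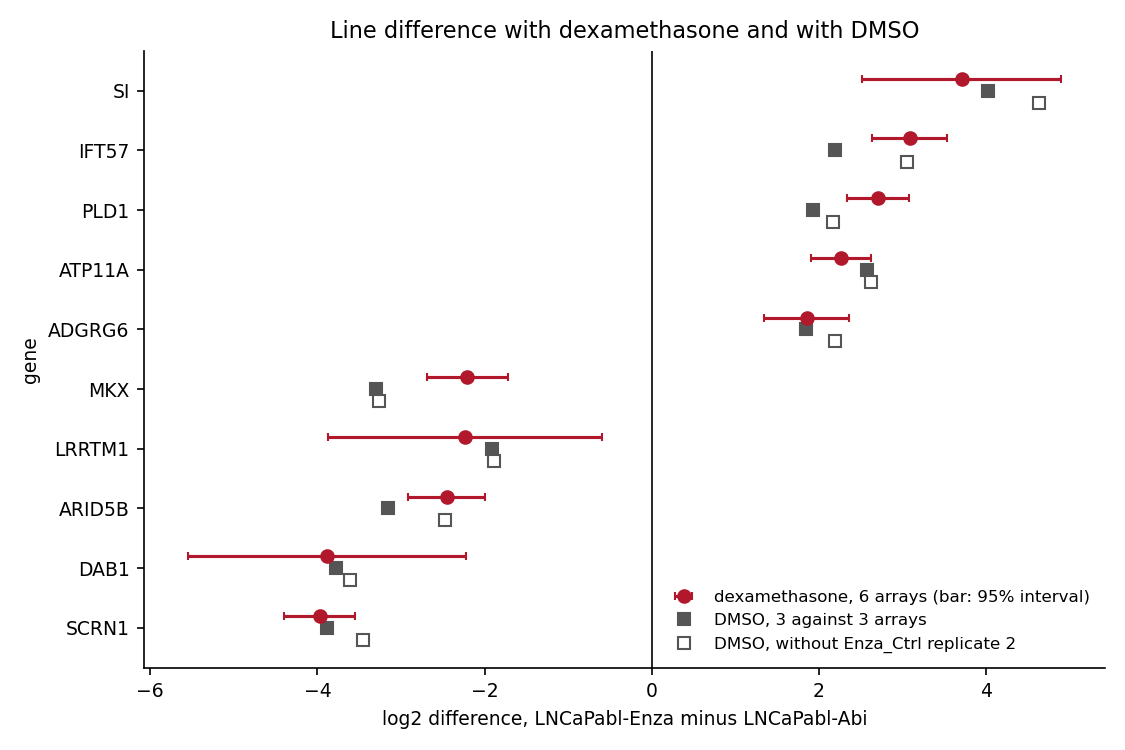
Log2 difference of LNCaPabl-Enza minus LNCaPabl-Abi (horizontal axis) for each gene, with dexamethasone (circles, 95% interval from the fit on 6 arrays) and with DMSO, with all arrays (filled squares) and without Enza_Ctrl replicate 2 (open squares). The sign is the same in all 3 for each gene, and the interval with dexamethasone is widest for DAB1, from -5.55 to -2.22.

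Among genes of transcription, MKX stood at 4.46, 4.44 and 4.63 on the Enza_Dex arrays, against 6.53, 6.39 and 7.23 on the Abi_Dex arrays. With DMSO it stood at 4.02, 4.11 and 4.45 in Enza_Ctrl, against 6.98, 7.73 and 7.78 in Abi_Ctrl. Every Enza array was thus below every Abi array, in both treatments. MKX was lower in Enza_Dex than in Abi_Dex, with a log2 difference of -2.21 ± 0.22 (SE, limma adjusted p = 0.000355), 4.62-fold. It was not above background on 2 of 3 Enza_Dex arrays and on 3 of 3 Enza_Ctrl arrays, and with the background mean as a floor the fold was 4.38.

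ARID5B stood at 8.72, 8.34 and 8.78 in Enza_Dex, against 10.69, 11.13 and 11.36 in Abi_Dex. On the DMSO arrays it stood at 8.31, 6.76 and 9.37 in Enza_Ctrl, against 10.92, 11.41 and 11.60 in Abi_Ctrl. The lines did not overlap in either treatment, and the lowest value was that of Enza_Ctrl replicate 2. ARID5B was lower in Enza_Dex than in Abi_Dex, with a log2 difference of -2.45 ± 0.21 (SE, limma adjusted p = 0.000122), 5.47-fold, with an adjusted p of 0.114 when all 12 arrays shared the spread.

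Of the genes known from neurons, DAB1 stood at 3.79, 3.63 and 7.34 in Enza_Dex, against 8.76, 8.63 and 9.02 in Abi_Dex. In Enza_Ctrl it stood at 4.27, 4.52 and 5.75, against 8.63, 8.01 and 9.24 in Abi_Ctrl. The lines did not overlap, but replicate 3 of LNCaPabl-Enza lay closest to LNCaPabl-Abi in both treatments. DAB1 was lower in Enza_Dex than in Abi_Dex, with a log2 difference of -3.89 ± 0.76 (SE, limma adjusted p = 0.0203). It was not above background on Enza_Dex replicates 1 and 2 and on 2 of 3 Enza_Ctrl arrays. With the background mean as a floor the fold with dexamethasone was 9.94. A fit without Enza_Dex replicate 3 rests on values under that mean, so the size it gives is uncertain. The call ended without Enza_Dex replicate 1 (adjusted p = 0.116) or 2 (0.0860) and without Abi_Dex replicate 1 (0.0725), 2 (0.0659) or 3 (0.0510), while without Enza_Dex replicate 3 the difference was -5.10 ± 0.19 (adjusted p = 1.73e-06).

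LRRTM1 stood at 2.96, 3.29 and 6.43 in Enza_Dex, against 6.07, 5.96 and 7.36 in Abi_Dex. On the DMSO arrays it stood at 3.32, 4.76 and 6.31 in Enza_Ctrl, against 5.80, 6.27 and 8.05 in Abi_Ctrl. Here the lines overlapped in both treatments, since replicate 3 of LNCaPabl-Enza lay above 2 LNCaPabl-Abi arrays in each. The log2 difference of Enza_Dex minus Abi_Dex was -2.23 ± 0.74 (SE, 95% interval -3.87 to -0.60, limma adjusted p = 0.173). LRRTM1 was not above background on 2 of 3 Enza_Dex arrays and on 2 of 3 Enza_Ctrl arrays. With the background mean as a floor the fold with dexamethasone was 2.42. Without Enza_Dex replicate 3 the difference was -3.33 ± 0.36 and passed (adjusted p = 0.000840). The Enza_Dex arrays left in that fit were those not above background, so the size of this difference is uncertain.

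SCRN1 stood at 5.29, 5.76 and 5.32 in Enza_Dex, against 9.29, 9.72 and 9.29 in Abi_Dex. In Enza_Ctrl it stood at 5.43, 4.63 and 6.34, against 9.14, 9.66 and 9.24 in Abi_Ctrl. The gap between the lines was far wider than the spread within any group, though 1 of 3 Enza_Ctrl arrays was not above background. SCRN1 was lower in Enza_Dex than in Abi_Dex, with a log2 difference of -3.97 ± 0.19 (SE), 15.7-fold, and with the smallest adjusted p of all genes in that fit (limma, 9.92e-06).

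Of the genes that were higher in LNCaPabl-Enza, SI stood at 6.38, 6.74 and 8.88 in Enza_Dex, against 3.0, 3.70 and 4.17 in Abi_Dex. On the DMSO arrays it stood at 6.94, 6.32 and 9.42 in Enza_Ctrl, against 3.49, 3.44 and 3.68 in Abi_Ctrl. Replicate 3 of LNCaPabl-Enza was the highest in both treatments, here farther from LNCaPabl-Abi rather than closer. SI was higher in Enza_Dex than in Abi_Dex, with a log2 difference of 3.71 ± 0.54 (SE, limma adjusted p = 0.00406) and an adjusted p of 0.112 when all 12 arrays shared the spread. SI was not above background on any of the 3 Abi_Dex and 3 Abi_Ctrl arrays, so it was at least 6.97-fold higher in Enza_Dex.

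IFT57 stood at 6.8, 7.01 and 7.32 in Enza_Dex, against 4.05, 3.63 and 4.18 in Abi_Dex. In Enza_Ctrl it stood at 6.91, 4.28 and 6.83, against 4.21, 3.43 and 3.82 in Abi_Ctrl. The value of Enza_Ctrl replicate 2 was not above background. It came within 0.1 of an Abi_Ctrl array, and the other 5 Enza arrays lay far above. IFT57 was higher in Enza_Dex than in Abi_Dex, with a log2 difference of 3.09 ± 0.20 (SE, limma adjusted p = 2.14e-05) and an adjusted p of 0.0630 when all 12 arrays shared the spread. IFT57 was not above background on any of the 3 Abi_Dex and 3 Abi_Ctrl arrays, so it was at least 5.70-fold higher in Enza_Dex.

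The membrane lipid enzymes ATP11A and PLD1 were above background on all 12 arrays. ATP11A stood at 8.90, 8.99 and 8.78 in Enza_Dex, against 6.77, 6.66 and 6.45 in Abi_Dex, and at 8.61, 8.52 and 8.71 in Enza_Ctrl, against 6.45, 5.70 and 5.94 in Abi_Ctrl. The log2 difference of Enza_Dex minus Abi_Dex was 2.27 ± 0.16 (SE, limma adjusted p = 3.54e-05), 4.81-fold. PLD1 stood at 7.77, 7.76 and 7.76 in Enza_Dex, against 5.19, 4.79 and 5.17 in Abi_Dex, and at 8.15, 7.12 and 7.54 in Enza_Ctrl, against 5.52, 5.70 and 5.80 in Abi_Ctrl. Neither gene overlapped between the lines in either treatment. PLD1 was higher in Enza_Dex than in Abi_Dex, with a log2 difference of 2.71 ± 0.17 (SE, limma adjusted p = 1.75e-05), 6.55-fold.

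The receptor ADGRG6 stood at 10.24, 9.67 and 10.48 in Enza_Dex, against 8.24, 8.01 and 8.57 in Abi_Dex. In Enza_Ctrl it stood at 9.89, 8.78 and 9.74, against 7.71, 7.5 and 7.64 in Abi_Ctrl. The lines did not overlap. ADGRG6 was higher in Enza_Dex than in Abi_Dex, with a log2 difference of 1.86 ± 0.23 (SE, limma adjusted p = 0.00156), 3.62-fold, the smallest of the 10 differences. In all, 9 of the 10 genes did not overlap between Enza_Dex and Abi_Dex, as for 20.1% of all genes. With DMSO the same count was 9, beside 14.2% of all genes, in the comparison that chose them.

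**Figure D3:**
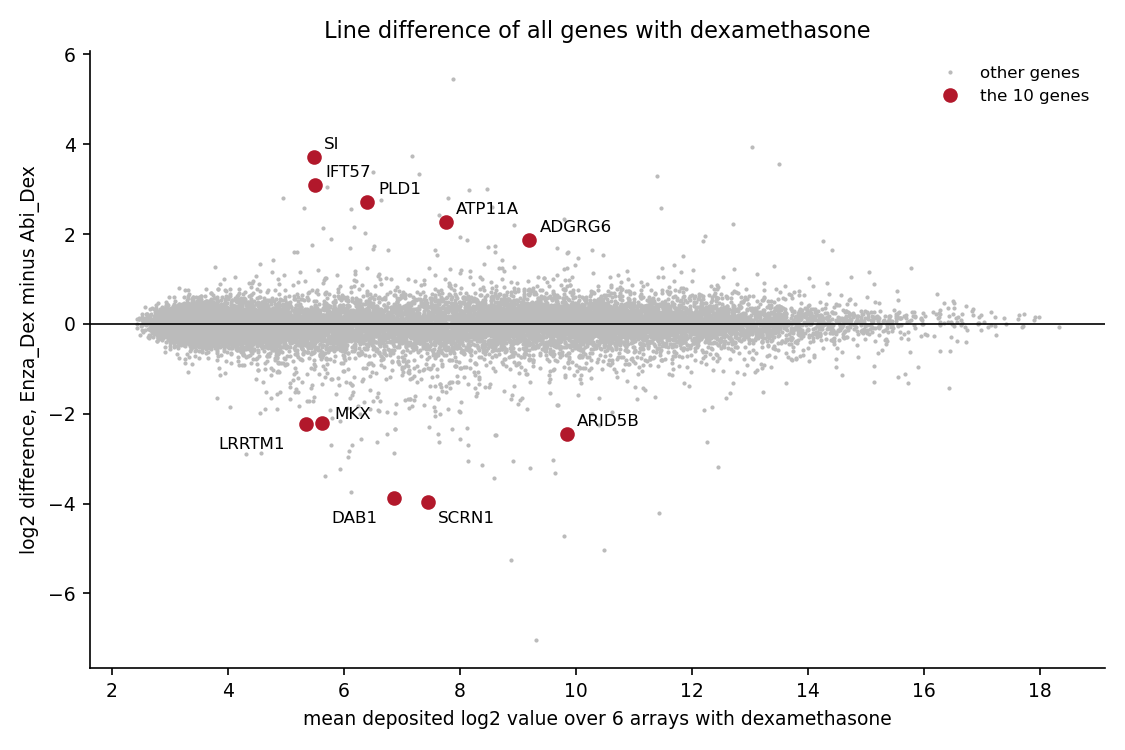
Log2 difference of Enza_Dex minus Abi_Dex (vertical axis) against the mean deposited log2 value over the 6 arrays with dexamethasone (horizontal axis), with each of the 17687 genes as a dot and the 10 genes named. The median size of the difference over all genes is 0.17, and the 10 genes lie between -3.97 and 3.71.

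The arrays numbered 3 were also read by themselves, as were those numbered 1 and 2. The Enza array differed from the Abi array of the same number and treatment in the direction of the DMSO means for 10 of 10 genes in each of the 3 pairs with dexamethasone. The 3 DMSO pairs showed the same count, but they hold the arrays that chose the genes and make up those means. The share of all genes with such agreement was not counted, and a shared number was not taken to pair the samples. With dexamethasone the median size over the 10 genes was 2.66, 2.88 and 2.58 for the arrays numbered 1, 2 and 3, where all genes had medians of 0.25, 0.25 and 0.26. In replicate 3 the size with dexamethasone ran from 0.93 for LRRTM1 to 4.72 for SI, and with DMSO from 1.74 to 5.74. The DMSO pair with Enza_Ctrl replicate 2 had the smallest single difference there, 0.84 for IFT57, and a median of 1.13 over all genes, against 0.25 and 0.26 for the other DMSO pairs.

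Replicate 3 of LNCaPabl-Enza was higher than the other replicates for DAB1, LRRTM1 and SI. In Enza_Dex, replicate 3 exceeded the mean of replicates 1 and 2 by 3.63 for DAB1, 3.30 for LRRTM1 and 2.32 for SI, and the other 7 genes were within 0.6. Of all 17687 genes, 18 (0.102%) were off by more than 2 in that array, and 3 of those 18 were among the 10 genes. Replicate 3 of LNCaPabl-Abi was off by more than 2 in somewhat more genes, 24 (0.136%) in Abi_Dex and 25 (0.141%) in Abi_Ctrl, with 0 and 1 of the 10 genes among them. In Enza_Ctrl, replicate 3 exceeded replicate 1 by 1.49 for DAB1, 2.99 for LRRTM1 and 2.47 for SI. NR3C1, which encodes the glucocorticoid receptor, was also higher there, by 2.48 in Enza_Dex and by 3.85 in Enza_Ctrl. In LNCaPabl-Abi, replicate 3 exceeded the mean of the other replicates by 1.34 for LRRTM1 with dexamethasone and by 2.02 with DMSO, and by less than 1 for DAB1 and SI. Replicate 3 of both lines was also left out, a setting chosen after seeing the data. The log2 differences of Enza_Dex minus Abi_Dex were then -4.99 ± 0.20 for DAB1 and -2.89 ± 0.21 for LRRTM1 (SE, limma adjusted p = 1.55e-06 and 3.75e-05). Neither gene was above background on the Enza_Dex arrays left, so these sizes are uncertain. In this fit 10 of the 10 genes passed, beside 3.06% of all genes.

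**Figure D4:**
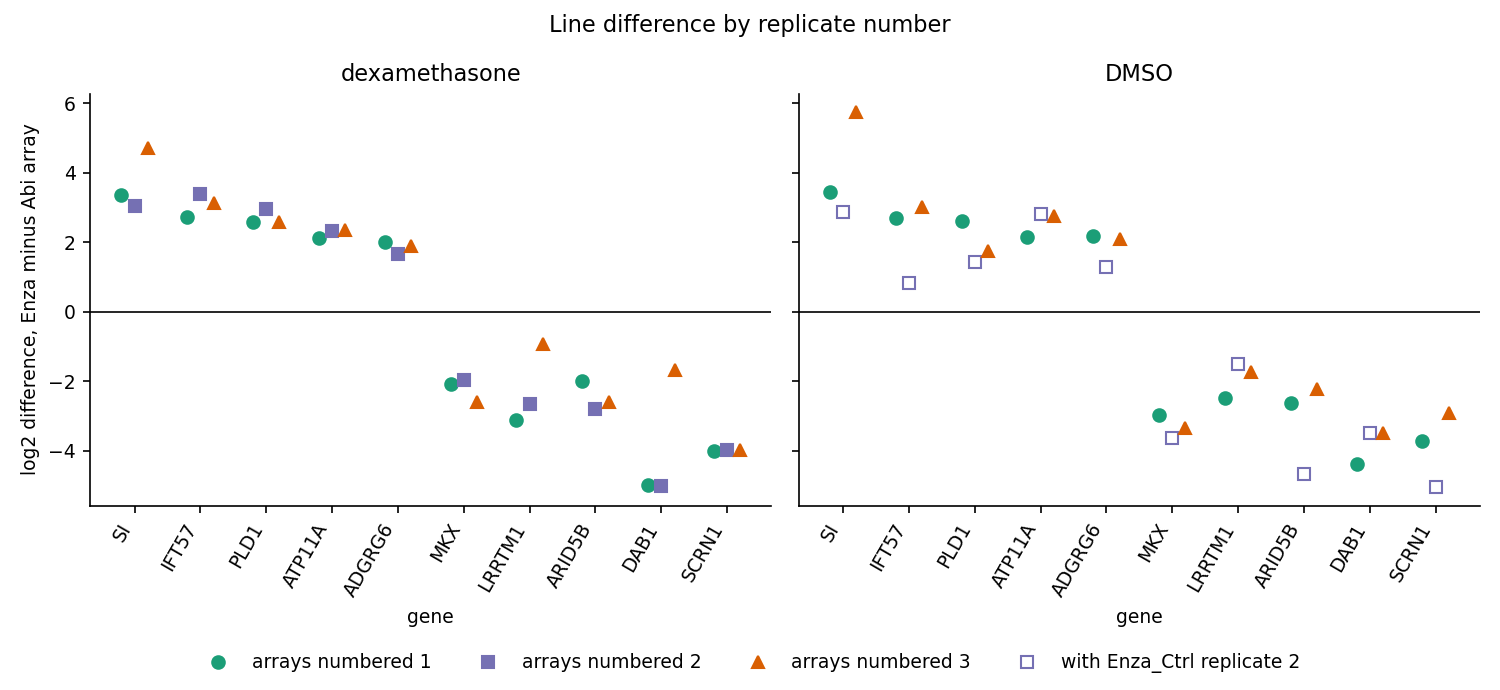
Log2 difference of each Enza array minus the Abi array with the same replicate number (vertical axis) for the 10 genes, with dexamethasone on the left and DMSO on the right. Open squares use Enza_Ctrl replicate 2, and the triangles of replicate 3 lie nearest to 0 for DAB1 and LRRTM1 with dexamethasone, at -1.68 and -0.93, and farthest for SI, at 4.72.

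By their estimates, the 10 genes moved less with dexamethasone than the gap between the lines. These responses use the DMSO arrays that chose the genes, and those of the 2 lines are given side by side. In LNCaPabl-Enza the differences of Enza_Dex minus Enza_Ctrl ran from -0.57 for LRRTM1 to 1.03 for IFT57, and 0 of the 10 genes passed with 12 arrays (limma adjusted p from 0.523 to 0.993, with 0% of all genes called and 3.96% at an unadjusted p under 0.05). Without Enza_Ctrl replicate 2, the differences ran from -0.85 ± 0.67 for SI to 0.32 ± 0.24 for ADGRG6 (SE, against -0.23 ± 0.78 and 0.66 ± 0.32 with 12 arrays). IFT57 was then at 0.17 ± 0.25, SCRN1 at -0.43 ± 0.27 and ARID5B at -0.23 ± 0.31. Again 0 genes passed by limma (530 of 17687 at an unadjusted p under 0.05). In LNCaPabl-Abi the differences of Abi_Dex minus Abi_Ctrl ran from -0.78 ± 0.29 for MKX to 0.65 ± 0.32 for ADGRG6 (SE), and 0 of the 10 passed (limma adjusted p = 1.00 for each, with 0.0283% of all genes called and 1.36% at an unadjusted p under 0.05). With the spread of 11 arrays 0 of the 10 passed as well, beside 0.141% of all genes called and 7.09% at an unadjusted p under 0.05.

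Of the 3 genes whose promoter sequences are shown, MKX was at 0.32 ± 0.29 in LNCaPabl-Enza and -0.78 ± 0.29 in LNCaPabl-Abi, PLD1 at 0.16 ± 0.26 and -0.62 ± 0.26, and SI at -0.23 ± 0.78 and 0.08 ± 0.78 (log2 difference with dexamethasone, SE). Without Enza_Ctrl replicate 2, the LNCaPabl-Enza values were 0.28 ± 0.28 for MKX, -0.08 ± 0.22 for PLD1 and -0.85 ± 0.67 for SI. PLD1 and ADGRG6 did not overlap between Abi_Dex and Abi_Ctrl, PLD1 lower and ADGRG6 higher with dexamethasone, as for 12.3% of all genes. ATP11A did not overlap between Enza_Dex and Enza_Ctrl, at 8.78 to 8.99 against 8.52 to 8.71, as for 8.74% of all genes.

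Whether the gap between the lines changed with dexamethasone is the difference of the responses, Enza minus Abi. It subtracts the DMSO gap for which the genes were chosen, so its values are not independent of that choice. It was largest for MKX, at 1.10 ± 0.41 (SE, 95% interval 0.19 to 2.00, limma adjusted p = 0.793), followed by IFT57 at 0.90 ± 0.81 and PLD1 at 0.78 ± 0.37. Without Enza_Ctrl replicate 2 the same values were 1.06 ± 0.38, 0.04 ± 0.34 and 0.54 ± 0.29. For SCRN1 it was -0.09 ± 0.53 and for ADGRG6 0.00 ± 0.46, with 95% intervals of -1.26 to 1.08 and -1.0 to 1.0. Without Enza_Ctrl replicate 2, SCRN1 was at -0.51 ± 0.37 and ADGRG6 at -0.34 ± 0.33, and SI went from -0.31 ± 1.1 to -0.93 ± 0.9. By limma 0 of the 10 genes and 0% of all genes were called, with 1.5% of all genes at an unadjusted p under 0.05 (3.20% without Enza_Ctrl replicate 2).

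The 10 genes lie on 7 chromosomes, with SI, IFT57 and PLD1 on chromosome 3 and MKX and ARID5B on chromosome 10. The 3 nearest measured genes on each side of each gene, in RefSeq gene order of GRCh38.p14, gave 60 neighbours. Of these, 2 rose in Enza_Dex, 0 fell and 58 did not pass, and the median size of their difference was 0.25. That is 3.33% of neighbours, near the 2.84% of all genes. BCHE, which encodes the plasma enzyme butyrylcholinesterase and lies near SI, stood at 7.26, 6.51 and 8.46 in Enza_Dex, against 4.40, 4.66 and 5.50 in Abi_Dex. Its difference was 2.56 ± 0.43 (SE, limma adjusted p = 0.00969). TNIK, a kinase of Wnt signalling whose gene lies next to PLD1, stood at 6.22, 5.89 and 6.35 in Enza_Dex, against 5.06, 4.55 and 5.28 in Abi_Dex, a difference of 1.19 ± 0.21 (adjusted p = 0.0132). Neither neighbour passed when all 12 arrays shared the spread (limma adjusted p = 0.768 and 0.427).

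**Figure D5:**
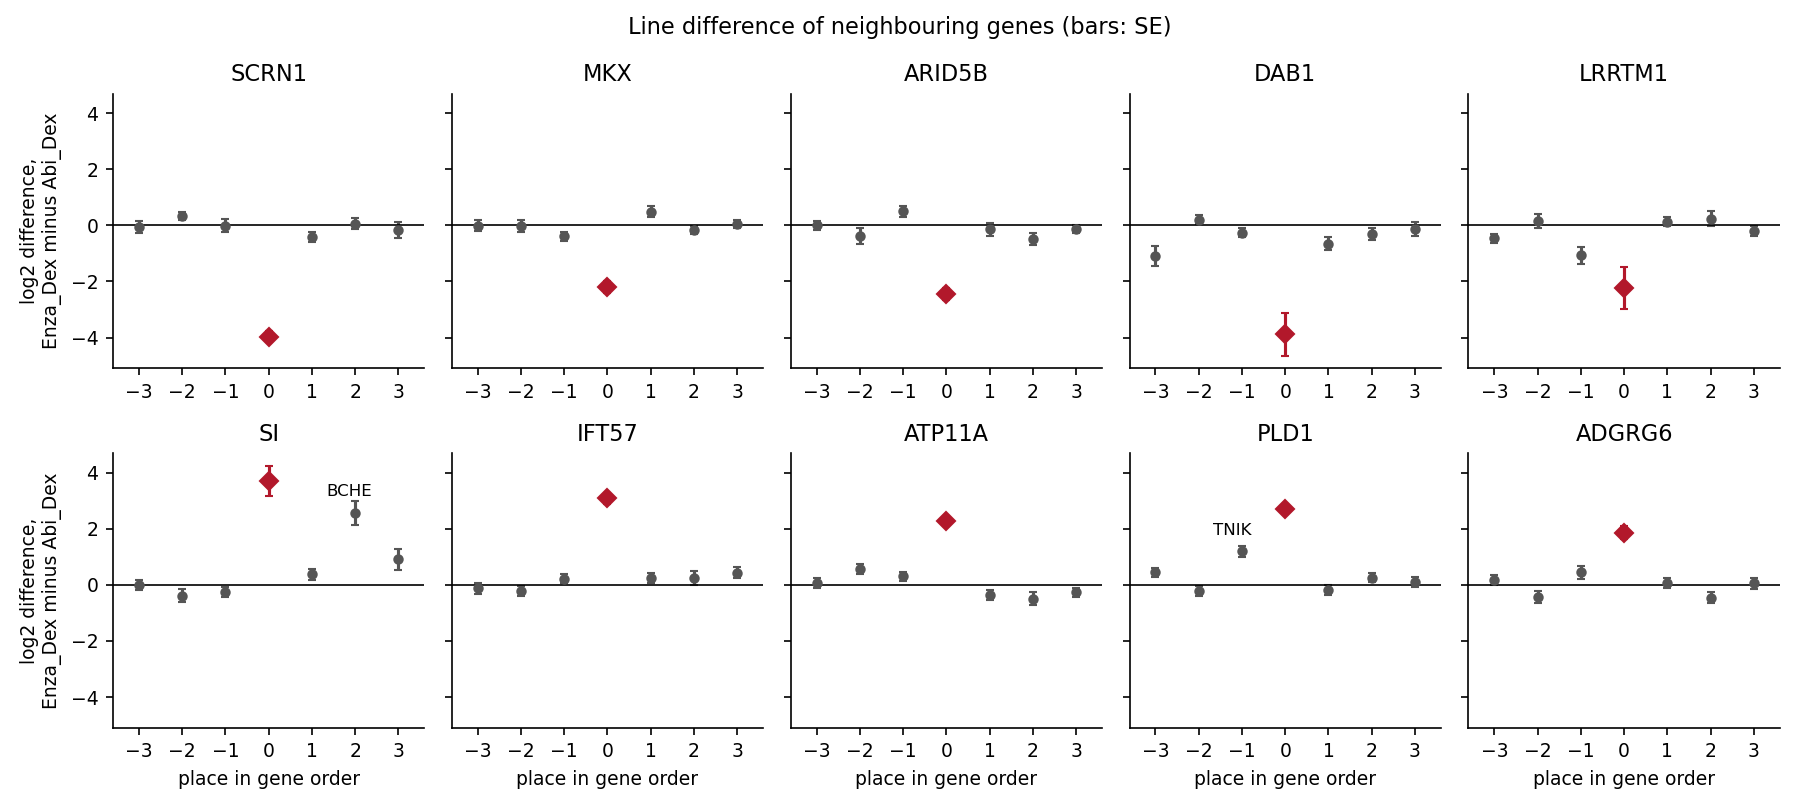
Log2 difference of Enza_Dex minus Abi_Dex (vertical axis, bars are SE) of each of the 10 genes (diamond, place 0) and of its 3 nearest measured genes on each side (circles, negative places towards lower coordinates). BCHE and TNIK, the 2 neighbours that passed, are named, and the other 58 did not pass.

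Relatives and partners of the 10 genes, in 10 lists, mostly did not pass between Enza_Dex and Abi_Dex, where 0.950% of all genes were higher and 1.89% lower. Of 11 measured genes of the reelin pathway, 2 rose and 0 fell: RELN, the ligand, at 0.91 ± 0.18 and the reelin receptor LRP8 at 0.74 ± 0.16 (SE, limma adjusted p = 0.0242 and 0.0337), while their adaptor DAB1 was lower. RELN stood at 4.74, 5.08 and 4.66 in Enza_Dex, against 3.75, 3.84 and 4.15 in Abi_Dex. It was not above background on any Abi_Dex array, so it was at least 1.22-fold higher in Enza_Dex. With DMSO the lines overlapped for RELN, at 4.88, 2.72 and 4.4 in Enza_Ctrl, against 3.96, 4.74 and 4.72 in Abi_Ctrl. Of 15 other homeobox genes of the TALE class, to which MKX belongs, 0 rose and 2 fell, MEIS3 at -1.0 ± 0.15 and IRX3 at -1.34 ± 0.31 (adjusted p = 0.00616 and 0.0464). IRX3 stood at 7.28, 6.82 and 8.34 in Enza_Dex, against 8.82, 8.85 and 8.81 in Abi_Dex. With the spread of all 12 arrays none of these 4 passed (limma adjusted p = 1.00 for each). Without Enza_Ctrl replicate 2, LRP8 and MEIS3 passed (adjusted p = 0.0295 and 0.00973), and RELN and IRX3 did not (0.0603 and 0.115).

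In the other 8 lists 0 genes passed in either direction. They held 15 other subunits of the intraflagellar transport B complex (median difference 0.11, smallest p for IFT52 at -0.37 ± 0.18, SE) and 14 other P4-ATPases with their subunits (median -0.09, ATP9A at -0.65 ± 0.18). They also held 13 ARID proteins with PHF2 (median -0.01, ARID2 at 0.50 ± 0.21), 8 phospholipase D genes with their activators (0.01, PLD4 at 0.28 ± 0.19) and 6 glucosidases (-0.10, GAA at -0.35 ± 0.19). The remaining lists were 5 receptors of the ADGRG group (-0.19, ADGRG2 at -0.35 ± 0.23), 5 LRRTM and neurexin genes (-0.36, LRRTM4 at -1.14 ± 0.49) and 2 other secernins (-0.13, SCRN2 at -0.17 ± 0.21). All genes had a median of -0.01.

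For each of the 10 genes, the most alike gene was taken, as a description of arrays that share 2 lines. The genes taken had the highest Pearson r among genes outside the 10, over the 11 arrays without Enza_Ctrl replicate 2. These were RCN1 for SCRN1 (r = 0.988), LRRN1 for ARID5B (0.987), CNNM2 for ATP11A (0.984), INSIG1 for PLD1 (0.983), EMP2 for IFT57 (0.975), ST3GAL1 for DAB1 (0.973), GOLIM4 for MKX (0.971), HMCN1 for LRRTM1 (0.971), PBX3 for ADGRG6 (0.961) and POLR1E for SI (0.954). HMCN1 stood at 4.53, 5.05 and 7.57 in Enza_Dex, against 6.73, 7.82 and 9.62 in Abi_Dex, so its replicate 3 was the highest in both lines, as for LRRTM1. With Enza_Ctrl replicate 2 included, r fell to 0.396 for POLR1E, 0.425 for CNNM2 and 0.613 for PBX3, and the other 7 were at 0.791 or above. Among the 10 genes themselves, over the same 11 arrays, LRRTM1 and SI were the pair with the weakest relation, at r = -0.34.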

How the data were processed

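The values deposited by the authors are log2 levels, with 1 row per transcript cluster. Per the submitters' processing notes, the tools were RMA, limma and Affymetrix Expression Console, with no versions given. Levels lay between 1.66 and 18.63, a wider range than RMA usually gives, and the RMA options are not given. Fold changes may therefore differ from the change in RNA, in a direction that was not tested. The annotation build is not given in the sources used here. Of 24351 rows, 17709 had 1 symbol in the platform annotation, and the brightest row per symbol left 17687 genes. All 17709 matched the RefSeq gene table by Entrez identifier.

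The 10 genes, the lists and the naming rule were chosen with earlier results of these data known. The rule named the 10 genes, NR3C1, neighbours and list members that passed (otherwise the list member with the smallest p), and 1 gene most alike to each. Enza_Dex and Abi_Dex were compared with limma 3.58.1 (lmFit, eBayes) in R 4.3.3 on 6 arrays, the other comparisons on 12 arrays with 4 group means. No block and no dim filter were used. Adjusted p-values are Benjamini-Hochberg over all genes. The test was run on simulated data for Enza_Dex against Abi_Dex (17687 genes, 200 changed). It recovered 58.2% of the changes of 1 on the log2 scale, 97.0% of those of 2 and 98.5% of those of 4. The number of arrays limits the precision. The highest r between any pair of arrays was 0.996, and none was counted as a repeat. Alternatives were all 12 arrays, 11 arrays, a replicate block, quantile normalization anew, a dim filter, a variance trend, and each replicate left out.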

Additional observations from a re-analysis of the deposited data

How the results depend on the processing

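The direction of all 10 genes between Enza_Dex and Abi_Dex was kept in every alternative run, including those that left out 1 of the 6 arrays. The count of the 10 that passed was 5 with the spread of all 12 arrays and 8 to 10 when 1 replicate was left out. It was 9 with 11 arrays, after quantile normalization anew, without the dimmest 25% of genes and with a mean trend, and 10 with the replicate block and without replicate 3 of both lines, an alternative chosen after seeing the data. The count over all genes, 502, was 49 with 12 arrays, 754 with a mean trend, 698 with the replicate block and 206 to 474 with 1 replicate left out. The neighbours that passed numbered 0 with 12 arrays, 4 with the replicate block and 0 to 3 with 1 replicate left out. Same-numbered arrays of different groups deviated together with r from -0.04 to 0.30, over 0.1 in 5 of 18 pairs, so the numbers were not taken as pairs. Under that block LRRTM1 was at -2.23 ± 0.35 (SE, limma adjusted p = 0.00851) and passed. With 1 replicate left out, the whole-table counts were 11 to 228 for Enza_Ctrl against Abi_Ctrl, 0 to 25 for dexamethasone in LNCaPabl-Abi and 0 to 1 in LNCaPabl-Enza. No response of the 10 genes passed in any alternative, and some near 0 changed sign. In LNCaPabl-Abi, leaving out 1 replicate gave SCRN1 -0.06 to 0.24, DAB1 -0.13 to 0.48, LRRTM1 -0.70 to 0.43, SI -0.19 to 0.40 and IFT57 -0.06 to 0.33. In LNCaPabl-Enza it gave SCRN1 -0.43 to 0.43, ARID5B -0.23 to 1.08, DAB1 -1.14 to 0.72, LRRTM1 -1.67 to 0.19, SI -1.0 to 0.70 and PLD1 -0.08 to 0.44, and quantile normalization anew gave SCRN1 0.31, ATP11A -0.17 and PLD1 -0.18. For the difference of the responses it gave SCRN1 -0.51 to 0.35, DAB1 -1.32 to 0.54, LRRTM1 -1.43 to 0.43, SI -1.09 to 0.62 and ADGRG6 -0.34 to 0.23, and quantile normalization anew SCRN1 0.20, DAB1 0.18 and ADGRG6 -0.38. The cause of these shifts was not tested.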

Other observations

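Genes other than DAB1, LRRTM1 and SI also differed in replicate 3 of LNCaPabl-Enza, and some are named here after their values were seen. Replicate 3 of LNCaPabl-Abi deviated in a like number of genes, 24 in Abi_Dex and 25 in Abi_Ctrl. In Enza_Dex, 18 genes differed by more than 2 (log2) between replicate 3 and the mean of replicates 1 and 2, and 12 of them were higher in replicate 3. In Enza_Ctrl, 26 genes differed by more than 2 between replicate 3 and replicate 1. The lists shared 10 genes, 55.6% of the first and 38.5% of the second, and 7 of the 10 were higher in replicate 3 in both treatments: SI, LRRTM1, NR3C1, FLRT3, HMCN1, P3H2 and CYP1A2.

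FLRT3, a fibronectin leucine-rich adhesion protein, was higher in replicate 3 by 4.09 in Enza_Dex and by 3.94 in Enza_Ctrl, while in LNCaPabl-Abi its replicate 3 was lower than the mean of the others, at -2.50 with dexamethasone and -2.02 with DMSO. CA1, a carbonic anhydrase, was lower in replicate 3 of LNCaPabl-Enza, at -4.26 and -4.50, and of LNCaPabl-Abi, at -2.08 and -1.75. DUSP5, a phosphatase that limits ERK signalling, was at -3.50 and -3.27 in LNCaPabl-Enza and at -0.20 and -0.11 in LNCaPabl-Abi. BCHE, the neighbour of SI, was at 1.58 and 2.43 in LNCaPabl-Enza and at 0.97 and 1.75 in LNCaPabl-Abi.

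SGK1, a kinase induced by glucocorticoids, stood at 9.66, 9.99 and 13.20 in Enza_Dex, against 6.13, 6.17 and 6.89 in Enza_Ctrl. NR3C1 stood at 6.72, 6.38 and 9.03 in Enza_Dex, against 6.51, 7.43 and 10.37 in Enza_Ctrl. Replicate 3 was thus the highest array of both LNCaPabl-Enza groups for both genes, and also of Abi_Dex. In Abi_Ctrl, replicate 3 was the lowest for SGK1 (6.52, 6.2 and 5.82) but the highest for NR3C1 (11.14, 11.3 and 11.49). The relation was not tested.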
